A study of Mus musculus with 2 samples.

Results

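The genes described here are 32 that encode glucose and lactate transport, glycolysis and the pentose phosphate pathway. They were chosen by symbol, and each symbol mapped to 1 of 43346 annotated gene rows. The rows come from G1E cells, an immortalised male mouse line that the labels describe as a progenitor of the red cell lineage without Gata1, the transcription factor that drives red cell maturation. Poly(A) RNA was sequenced in 2 libraries, labelled biological replicates 1 and 2, with no other genotype, treatment or time, so every statement is about 1 line and no comparison of conditions can be made. The labels do not show that the libraries came from separate cultures, and the spread between them may be technical.

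Glycolysis splits glucose into pyruvate. The upper steps spend ATP to make triose phosphates and the lower steps return ATP and NADH. Lactate dehydrogenase turns pyruvate into lactate and regenerates the NAD that glyceraldehyde-3-phosphate dehydrogenase uses, and monocarboxylate transporters carry lactate out of the cell. The pentose phosphate pathway draws off glucose-6-phosphate. Its oxidative arm makes NADPH, which protects red cells from oxidants, and its non-oxidative arm exchanges ribose phosphates with glycolytic intermediates. Mature red cells have no mitochondria and make ATP by glycolysis, and their bisphosphoglycerate lowers the oxygen affinity of haemoglobin.

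Replicate 1 held 31633573 expected counts in annotated genes and replicate 2 held 56978193. Read length, inferred from the deposited effective lengths, was 36 nt in the former and 55 nt in the latter. TPM, the unit of level, is the count divided by effective length and brought to the same total in each library. It describes RNA only, and protein amount, enzyme activity and transport were not measured. Values given in pairs are for replicate 1 and then replicate 2, and errors are SDs over the 2 libraries. A count of 3 reads over a 1 kb effective length equals 0.128 TPM in the first library and 0.0662 TPM in the second. Gata1 was present at 88.2 TPM and 61.4 TPM, and which part of the gene is lost in the line was not analysed here. All 8 markers of red cell progenitors reached 1 TPM in both libraries, as did 4 of 4 markers of mature red cells, while lymphoid, liver and neuron markers had none that did. Lyz2, a myeloid lysozyme, stood at 3.20 TPM and 15.7 TPM, and Des, a muscle filament gene, at 5.71 TPM and 7.83 TPM. In bulk RNA, fewer cells of a type and less RNA per cell cannot be told apart.

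Nearly the whole pathway was transcribed. Of the 32 genes, 30 reached 1 TPM in both libraries, where 42.5% of protein-coding genes did. Hk3 and Ldhb stayed under 1 TPM in both. In both libraries 17 genes reached 100 TPM and 7 reached 1000 TPM. By mean level, the lowest of the 17 was Pklr at 122 TPM, above 94.8% of protein-coding genes. The lowest of the 7 was Tpi1 at 1568 TPM, above 99.6% of them. The median level was 135 TPM, against 0.365 TPM over all protein-coding genes and 23.5 TPM over the 9118 expressed ones. The 32 genes took 2.72% of the protein-coding TPM in replicate 1 and 2.81% in replicate 2, and 2.64% and 2.58% of all counts.

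**Figure D1:**
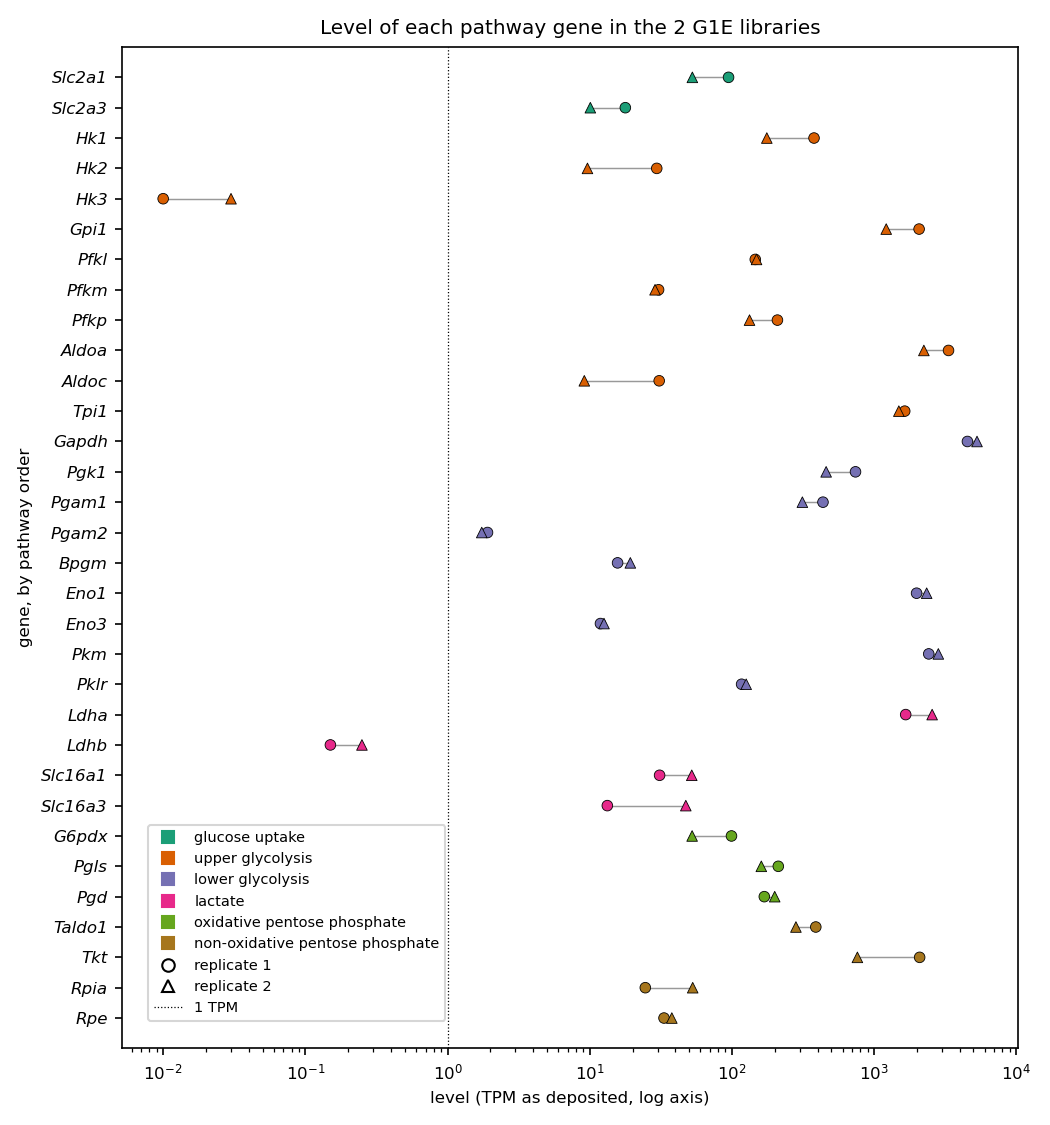
Level of each of the 32 genes (TPM as deposited, log axis) in replicate 1 (circles) and replicate 2 (triangles), in pathway order and coloured by role, with a dotted line at 1 TPM. Hk3 and Ldhb lie left of the line, and Gapdh lies furthest right at 4534 TPM and 5295 TPM.

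Glucose transporter RNA was mostly that of Slc2a1, which encodes GLUT1. Slc2a1 stood at 94.7 TPM and 52.7 TPM, and Slc2a3, which encodes GLUT3, at 17.8 TPM and 10.1 TPM. Both were higher in replicate 1, and Slc2a1 exceeded Slc2a3 in each library. The difference was 2.31 ± 0.05 on the log2(TPM + 1) scale (SD, n = 2). Such differences are read against a bound of 1.23, the 95% half-width for a mean of 2 libraries from an SD of 0.63 pooled over 10469 expressed genes, and this one lay beyond it. No p-value was computed for pairs.

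Among hexokinases, which trap glucose as glucose-6-phosphate, Hk1 was the main transcript. Hk1 stood at 378 TPM and 176 TPM, and made up 93.8% ± 1.45 of the hexokinase sum (SD, n = 2). Hk2, the isozyme often raised in growing and tumour cells, stood at 29.6 TPM and 9.64 TPM. Hk1 exceeded Hk2 by 3.84 ± 0.30 on the log2(TPM + 1) scale, beyond the bound. Hk3 had 1 count in replicate 1 and 4 counts in replicate 2. Their exact Poisson intervals reach 0.0557 TPM and 0.0768 TPM at the upper end and cover counting error only. Gpi1, which converts glucose-6-phosphate to fructose-6-phosphate, followed at 2073 TPM and 1217 TPM.

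Phosphofructokinase commits sugar to glycolysis, and its RNA was shared between the genes of its isozymes. Pfkp, the platelet type, stood at 209 TPM and 133 TPM, Pfkl, the liver type, at 146 TPM and 149 TPM, and Pfkm, the muscle type, at 30.5 TPM and 28.8 TPM. Pfkm was lowest in both libraries, while Pfkl and Pfkp changed places. The log2(TPM + 1) difference of Pfkl from Pfkp was -0.52 in replicate 1 and 0.17 in replicate 2, with a mean of -0.17 ± 0.49 (SD, n = 2) inside the bound. A large share of Pfkp was assigned to Pfkp-203, a transcript of 702 nt annotated as a target of nonsense-mediated decay, with 48.5% and 34.4% of the gene's TPM. Over the longest protein-coding transcript Pfkp came to 92.9 TPM and 72.2 TPM. The mean difference of Pfkl from Pfkp became 0.81, still inside the bound from deposited TPM. That transcript, Pfkp-207 of 4145 nt, was assigned 8.22% and 15.2% of Pfkp TPM, against 30.7% and 35.2% for the coding Pfkp-201 of 2679 nt. Which isozyme led was therefore not settled by these libraries. Pfkp also overlaps Pitrm1, at 189 TPM and 107 TPM on the opposite strand, over 5.58% of its exonic bases, and strand use is not stated.

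The transcripts of aldolase and triosephosphate isomerase, which make and interconvert the triose phosphates, were among the most abundant. Aldoa stood at 3338 TPM and 2239 TPM and took 99.3% ± 0.36 of the aldolase sum (SD, n = 2). Aldoc, best known from brain, stood at 30.8 TPM and 9.16 TPM. Aldoa exceeded Aldoc by 7.25 ± 0.76 on the log2(TPM + 1) scale, beyond the bound. Tpi1 stood at 1642 TPM and 1493 TPM, with no second gene at this step.

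In lower glycolysis, Gapdh was the highest of the 32 genes as deposited, and its position rests on short transcripts. Gapdh stood at 4534 TPM and 5295 TPM. Gapdh-208, a processed transcript of 483 nt, was assigned 57.4% and 69.4% of that TPM, and all protein-coding transcripts together 13.3% and 9.22%. Dividing the same counts by the effective length of the longest protein-coding transcript, of 1420 nt, gave 1733 TPM and 1977 TPM. On that scale the Gapdh step moved from rank 1 to rank 5 of 21, behind pyruvate kinase at 2731 ± 306 TPM, aldolase at 2717 ± 771 TPM, enolase and lactate dehydrogenase (SD, n = 2). Gapdh had 56069 and 122472 counts, fewer than Pkm with 135664 and 305163.

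**Figure D2:**
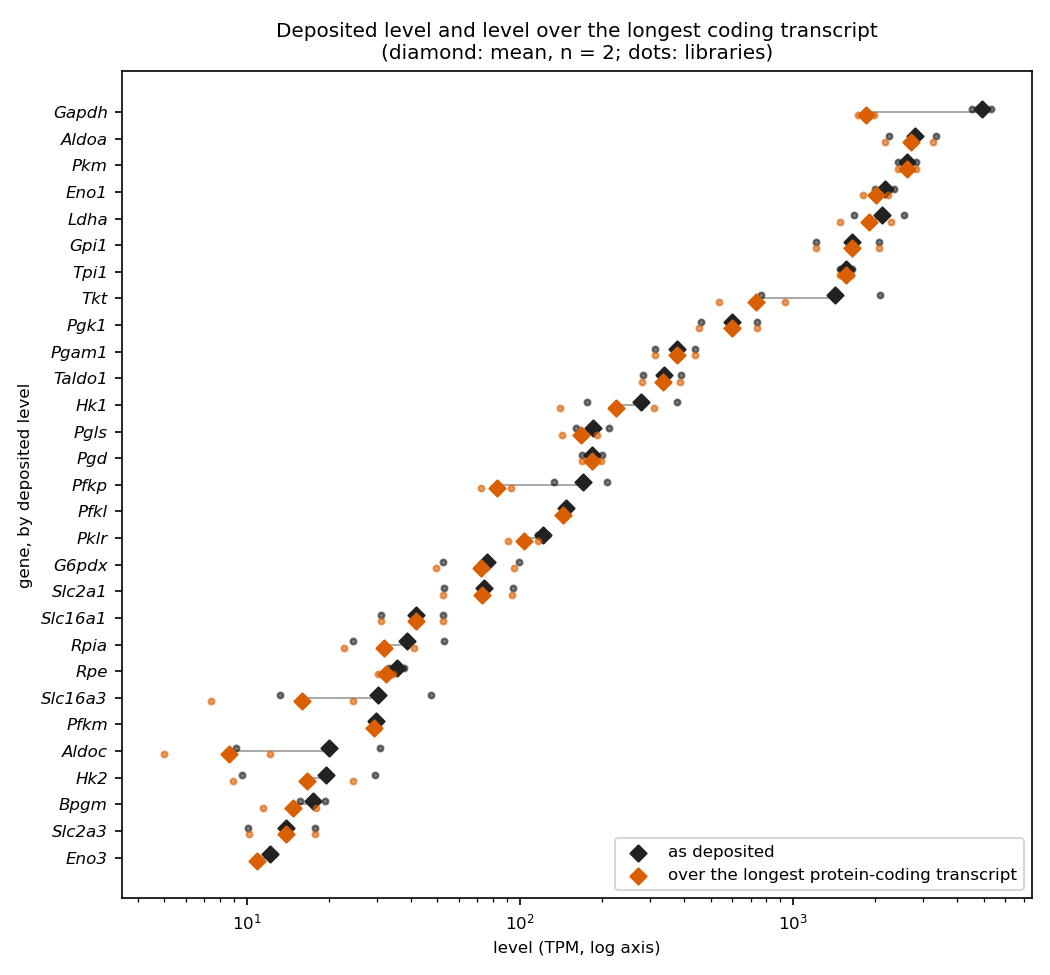
Level of the members with a mean of at least 10 TPM (TPM, log axis) as deposited (black) and over the longest protein-coding transcript (orange), with diamonds for means of 2 libraries and dots for libraries. Gapdh, Tkt, Pfkp, Slc16a3 and Aldoc shift furthest to the left, and most other genes keep nearly the same level.

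The next steps pass a phosphate to ADP and move the remaining one. Pgk1, phosphoglycerate kinase, stood at 740 TPM and 460 TPM. Pgam1, the widely expressed mutase, stood at 437 TPM and 313 TPM, and Pgam2, the muscle form, at 1.91 TPM and 1.74 TPM from 36 and 62 counts. Pgam1 exceeded Pgam2 by 7.04 ± 0.28 on the log2(TPM + 1) scale, beyond the bound. Bpgm makes the bisphosphoglycerate for which red cells are known. It stood at 15.7 TPM and 19.3 TPM, the lowest sum of the 21 steps, and Pgam1 exceeded it by 4.33 ± 0.54 (log2, SD, n = 2).

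Of the enolases counted here, which make phosphoenolpyruvate, Eno1 was the higher, at 1990 TPM and 2343 TPM. Eno3, the muscle enolase, stood at 11.9 TPM and 12.6 TPM. Eno1 exceeded Eno3 by 7.35 ± 0.11 on the log2(TPM + 1) scale, beyond the bound, and took 99.4% ± 0.04 of the sum of the pair (SD, n = 2). That sum leaves out Eno1b, a near-identical copy annotated as protein-coding, which made up 37.1% and 25.3% of Eno1 plus Eno1b.

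Pyruvate kinase closes the pathway and was transcribed from Pkm and, at a far lower level, from Pklr. Pkm stood at 2423 TPM and 2830 TPM and Pklr at 117 TPM and 126 TPM, so that Pkm was 20.7-fold and 22.4-fold higher. Pkm is spliced with 1 of 2 mutually exclusive exons, the upstream giving PKM1, known from muscle and brain, and the downstream giving PKM2, known from growing cells. Both exons are 167 nt, lie on chromosome 9 of GRCm38, plus strand, and count as exon 9 of their transcripts. They are identical at 61.7% of positions, and they are shown because they encode the stretch in which the enzymes differ, with 64 differing positions. Capitals mark differing bases. The M1 exon is at chr9:59675029-59675195 and the M2 exon at chr9:59675568-59675734.
Pkm exon of M1: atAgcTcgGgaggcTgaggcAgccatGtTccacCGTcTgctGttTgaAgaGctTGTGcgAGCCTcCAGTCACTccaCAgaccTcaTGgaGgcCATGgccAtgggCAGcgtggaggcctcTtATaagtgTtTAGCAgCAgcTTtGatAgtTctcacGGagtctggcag
Pkm exon of M2: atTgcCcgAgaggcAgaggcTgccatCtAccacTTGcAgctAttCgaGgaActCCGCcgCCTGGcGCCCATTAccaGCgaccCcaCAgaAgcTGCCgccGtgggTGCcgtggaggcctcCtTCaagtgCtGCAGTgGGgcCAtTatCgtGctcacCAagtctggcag
The transcript with the M2 exon, Pkm-201, was assigned 98.5% of Pkm TPM in replicate 1 and 98.1% in replicate 2. That with the M1 exon, Pkm-202, was assigned 1.68% ± 0.25 (SD, n = 2). The M1 transcript still came to 36.3 TPM and 52.4 TPM. In the annotation these transcripts also start 205 nt apart and end 186 nt apart, so the assignment need not rest on reads over the exons shown, and exon, start and end cannot be told apart in it. Both transcripts are 2432 nt in the tables, so their shares of counts equal their shares of TPM. Pkm shares 16.1% of its 36-mers with the pseudogene Gm6560, which was not analysed here.

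Pklr encodes the pyruvate kinase of liver and red cells, from separate first exons. The upstream start is known for the red cell enzyme and the downstream one for the liver enzyme, and in the annotation they lie 430 nt apart. Transcripts from the upstream exon were assigned 28.8% of Pklr TPM in replicate 1 and 11.1% in replicate 2, and those from the downstream exon 71.2% and 88.9%. By counts the upstream share was 10.8% and 6.58%. Thus most of Pklr was assigned to the downstream start in both libraries. Most of the upstream TPM came from Pklr-205, a processed transcript of 345 nt with 26.5 TPM and 6.68 TPM, whereas the full-length Pklr-201 had 7.21 TPM and 7.31 TPM. Pklr-202, the main downstream transcript, also ends 190 nt further 3′ than Pklr-201, so start and end cannot be told apart in the assignment. Hcn3, at 2.30 TPM and 1.97 TPM, overlaps 22.0% of the exonic bases of Pklr on the opposite strand.

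The bases before both Pklr starts are given because the libraries divide the gene between them. They come from RefSeq on GRCm38.p6, chromosome 3, plus strand, at chr3:89135892-89136141 and chr3:89136373-89136571, the second ending where the annotated downstream exon begins. Capitals mark GATAA, the core bound by GATA factors, and CACCC, bound by Klf1 and its relatives, on both strands, where CACCC reads GGGTG on the other.
Pklr start 1: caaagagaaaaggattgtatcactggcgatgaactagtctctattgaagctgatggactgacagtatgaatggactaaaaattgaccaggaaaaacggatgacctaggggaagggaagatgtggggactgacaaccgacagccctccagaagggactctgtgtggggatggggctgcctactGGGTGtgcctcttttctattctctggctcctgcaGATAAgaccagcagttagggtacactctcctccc
Pklr start 2: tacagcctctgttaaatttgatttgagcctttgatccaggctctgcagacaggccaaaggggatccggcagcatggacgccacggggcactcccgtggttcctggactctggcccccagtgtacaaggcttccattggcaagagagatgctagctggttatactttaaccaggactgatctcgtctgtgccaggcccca
The upstream window holds 1 GATAA and 1 CACCC, and the downstream window, which is 199 nt long against 250 nt, holds 0 of each. In full windows, GATAA occurs in 22.6% of 32851 RefSeq windows of 250 bases and in 18.2% of the 44 windows of 31 of the 32 genes. CACCC occurs in 52.0% and 61.4%. A match describes letters only.

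**Figure D3:**
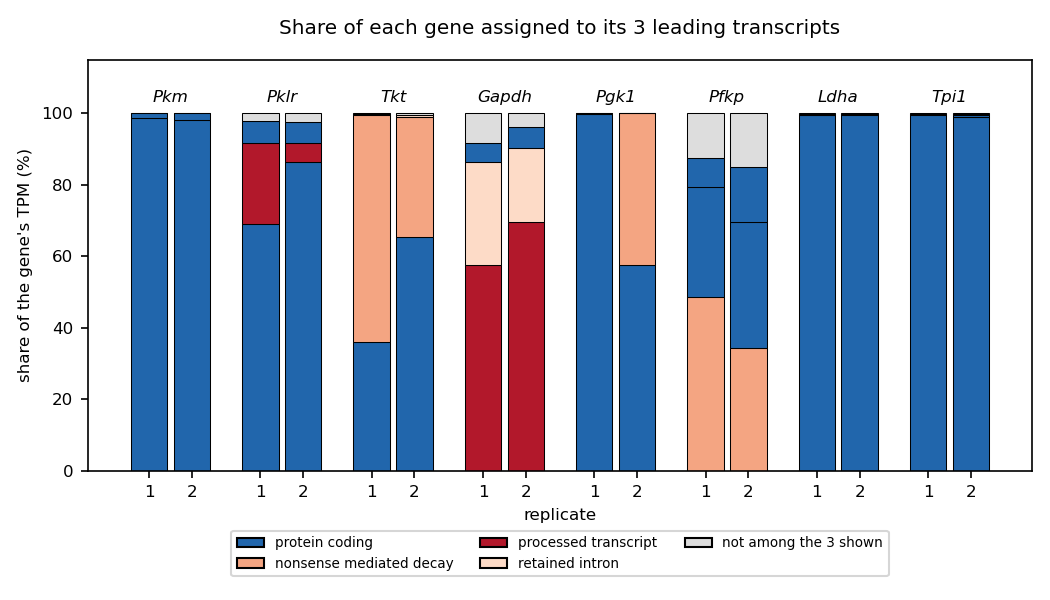
Share of the gene's TPM (%) assigned to the 3 leading transcripts of 8 genes, by replicate, coloured by annotated transcript type, with grey for transcripts not among the 3. Pkm, Ldha and Tpi1 rest on 1 coding transcript, while Tkt, Gapdh and Pfkp hold large shares of decay targets or other noncoding types.

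Lactate dehydrogenase RNA was almost wholly that of the A chain, Ldha. Ldha stood at 1668 TPM and 2560 TPM, and Ldhb, the heart-type chain, at 0.15 TPM and 0.25 TPM from 3 and 13 counts. The ratio of Ldha to Ldhb was 11120 in replicate 1, with a 95% counting interval of 3805 to 53921, and 10238 in replicate 2, with an interval of 5987 to 19229. These intervals take the exact Poisson error of Ldhb only. Ldha-202 was assigned 99.4% of Ldha TPM in both libraries.

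The RefSeq windows before the first Ldha start and the Ldhb start are shown for this pair. Ldha lies at chr7:46845554-46845803 on the plus strand and Ldhb at chr6:142507958-142508207 on the minus strand, both on GRCm38.p6. Capitals mark ACGTG, the core of hypoxia response elements, and CACGTG, the E-box bound by Myc, on both strands, where ACGTG reads CACGT on the other.
Ldha start 1: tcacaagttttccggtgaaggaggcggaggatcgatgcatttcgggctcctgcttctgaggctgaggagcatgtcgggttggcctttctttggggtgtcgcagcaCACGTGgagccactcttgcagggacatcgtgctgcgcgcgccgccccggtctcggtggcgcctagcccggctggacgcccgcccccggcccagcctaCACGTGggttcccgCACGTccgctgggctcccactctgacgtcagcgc
Ldhb start 1: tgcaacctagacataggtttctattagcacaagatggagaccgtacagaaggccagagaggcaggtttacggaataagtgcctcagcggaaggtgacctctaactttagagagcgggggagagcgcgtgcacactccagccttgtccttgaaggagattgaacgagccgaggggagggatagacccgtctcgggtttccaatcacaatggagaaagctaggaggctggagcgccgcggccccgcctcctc
Ldha has 5 matches to ACGTG, of which each of 2 copies of the palindrome CACGTG counts on both strands, and Ldhb has 0. A second RefSeq start of Ldha also has 0. ACGTG occurs in 29.5% of the 44 windows and in 16.6% of all, and CACGTG in 6.82% and 6.02%. No test was made of these shares.

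Lactate transporter RNA came from both Slc16a1 and Slc16a3. Slc16a1, which encodes MCT1, stood at 31.0 TPM and 52.2 TPM, and Slc16a3, which encodes the export-adapted MCT4, at 13.3 TPM and 47.4 TPM. Slc16a1 was higher in both libraries, but its lead of 0.65 ± 0.73 on the log2(TPM + 1) scale lay inside the bound (SD, n = 2). Over the longest protein-coding transcripts the difference became 1.49, beyond the bound from deposited TPM. For Slc16a3 that transcript is Slc16a3-208 of 4335 nt, which was assigned only 13.2% and 4.92% of its TPM. The coding Slc16a3-202 of 2386 nt was assigned 76.2% and 81.0%, so the 1.49 rests on the length of a minor transcript. Bsg, whose protein escorts both transporters to the membrane, stood at 434 TPM and 410 TPM.

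In the oxidative pentose phosphate arm the gene of the first enzyme had the lowest RNA level. G6pdx, which makes the first NADPH, stood at 99.3 TPM and 52.5 TPM. Pgls, the lactonase, stood at 212 TPM and 161 TPM, and Pgd, which makes the second NADPH, at 169 TPM and 200 TPM. G6pdx was the lower of the pair in both libraries, and its difference from Pgd was -1.33 ± 0.81 on the log2(TPM + 1) scale (SD, n = 2), beyond the bound. Replicate 1 alone gave -0.76, inside the wider bound for 1 library. G6pdx shares 13.6% of its exonic bases with Ikbkg on the opposite strand, at 37.5 TPM and 25.5 TPM.

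RNA of the non-oxidative arm came mostly from the genes of its carbon-exchanging enzymes. Tkt, transketolase, stood at 2091 TPM and 763 TPM, and Taldo1, transaldolase, at 389 TPM and 282 TPM. Tkt exceeded Taldo1 by 1.93 ± 0.70 on the log2(TPM + 1) scale (SD, n = 2), beyond the bound, but by 1.43 in replicate 2 alone, inside the wider bound for 1 library. Tkt-205, a decay target of 465 nt, was assigned 63.5% and 33.5% of Tkt TPM from 13341 and 4766 counts, against 55992 and 71756 counts for the coding Tkt-201. Over the longest coding transcript Tkt came to 934 TPM and 536 TPM. Its lead over Taldo1 became 1.10, inside the bound from deposited TPM. Rpia and Rpe, which interconvert the pentose phosphates, were the lowest genes of this arm. Rpia stood at 24.6 TPM and 53.0 TPM, Rpe at 33.3 TPM and 37.8 TPM, and their difference was 0.02 ± 0.64 (log2, SD, n = 2), inside the bound.

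Across all 17 pairs of related genes or steps, 14 differed beyond the bound and 15 had the same direction in both libraries. Several pairs share a gene, and the share over pairs of other genes was not computed. The counts therefore describe these pairs and are not shown to be a trait of the pathway. The 21 steps ran from Gapdh at 4914 ± 538 TPM to Bpgm at 17.5 ± 2.55 TPM (SD, n = 2). In that order 0 of 20 neighbouring steps differed beyond the bound. Sorting by level keeps neighbours close, so this count does not show that the steps are alike. By role, lower glycolysis summed to 10271 TPM and 11400 TPM, upper glycolysis to 7879 TPM and 5455 TPM, and the non-oxidative arm to 2538 TPM and 1136 TPM. The lactate genes summed to 1712 TPM and 2659 TPM, the oxidative arm to 480 TPM and 413 TPM, and glucose uptake to 112 TPM and 62.8 TPM. Over the longest protein-coding transcripts, lower glycolysis came to 7252 TPM and 7958 TPM and upper glycolysis to 7565 TPM and 5269 TPM, so their order turned in replicate 1. On that scale the non-oxidative arm came to 1374 TPM and 891 TPM.

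Some of these levels differed between the libraries, which also differ in depth and read length. Ratios of TMM-scaled counts, replicate 2 over replicate 1, could be read for 30 of the genes, and Hk3 and Ldhb had too few counts. Slc16a3, Rpia and Slc16a1 were at least 2-fold higher in replicate 2, 3 genes where 22.3% of all 12414 genes with at least 50 counts were. Hk2 was at least 2-fold lower, 1 gene where 10.2% of all were. The log2 ratios were 2.03 for Slc16a3, 1.14 for Rpia, 1.05 for Slc16a1 and -1.16 for Hk2. Scaling by library totals gave 0.85 for Slc16a1 and 0.94 for Rpia, under 2-fold, and put Hk1 at -1.04 and Aldoc at -1.19, past it. By the ratio of TPM, 2 genes were at least 2-fold higher, Slc16a3 and Rpia, and 4 at least 2-fold lower, namely Aldoc at -1.75, Hk2 at -1.62, Tkt at -1.45 and Hk1 at -1.10. Slc16a3 had 745 and 4774 counts, and Hk2 had 3131 and 2200. The median log2 ratio was 0.13 over the 30 genes and 0.28 over all genes tested, and with 1 library on each side no test is possible.

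By role, the ratios were counted against the all-gene median, with no test. Both glucose transporters and 8 of 9 upper glycolysis genes had a ratio under the all-gene median, and 6 of 9 lower glycolysis genes and 3 of 3 lactate genes had one over it. The oxidative arm had 1 gene over and 2 under, and the non-oxidative arm 2 over and 2 under. TPM ratios, read against their own all-gene median, gave the same counts. DESeq2 size factors and library totals shift every gene and the median alike, so they could not change the counts. With its copies Pgk1, counted here under the median, went from -0.42 to 0.64, over the median of 0.28. Aldoc at -0.99, Hk1 at -0.84 and G6pdx at -0.65 were the next lowest log2 ratios, and Bpgm at 0.94 and Ldha at 0.91 the next highest. Marker genes differed between the same libraries. The 4 mature red cell markers, all above 0 in both, summed to 12.3 TPM and 31.0 TPM, although Epb42 among them stood at 4.11 TPM and 3.42 TPM. The 8 progenitor markers summed to 2544 TPM and 1557 TPM but did not move together. By log2 ratio of scaled counts Gfi1b stood at -0.79, Gata2 at -0.64, Zfpm1 at -0.37, Kit at -0.19 and Klf1 at -0.09. Epor stood at 0.40, Tal1 at 0.45 and Tfrc, at 48.4 TPM and 139 TPM, at 2.53. The part of these markers, of depth and of read length in the ratios was not tested.

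**Figure D4:**
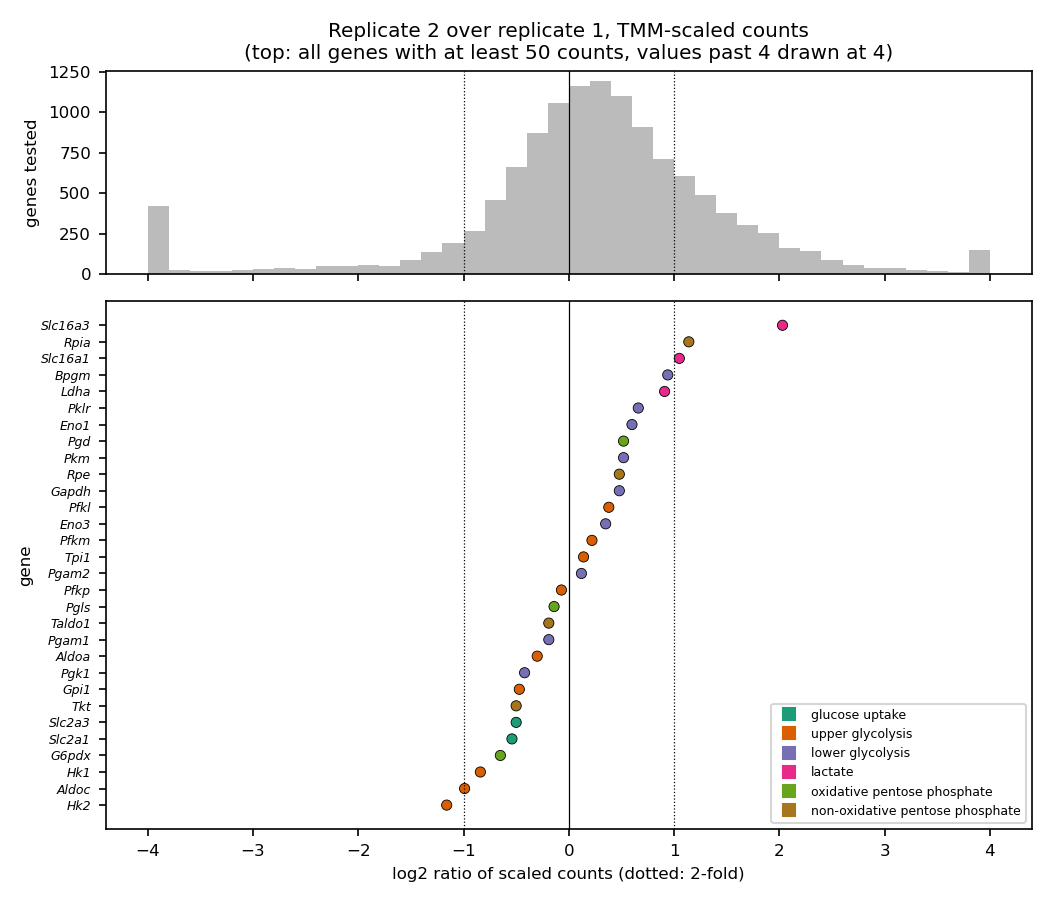
Log2 ratio of TMM-scaled counts, replicate 2 over replicate 1, as a histogram of all genes with at least 50 counts (top) and as points for 30 pathway genes coloured by role (bottom), with dotted lines at 2-fold. Slc16a3 at 2.03 stands furthest right and Hk2 at -1.16 furthest left.

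Several levels depend on how reads were divided among near-identical copies. Of the 32 genes, 12 share at least 10% of their 36-mers with another gene. For 9 of them at least 1 such gene lies elsewhere, and for 3, Pgls, Pklr and Rpe, the only such gene overlaps the same locus and is no copy. For Pkm and Taldo1 the genes elsewhere, Gm6560 and Gm17823, were not listed in the deposited values. Ldha and Aldoa share 16.5% and 13.5% with other genes in total, but no single gene reaches 10%. Pgk1 shares 54.5% with Pgk1-rs7, a processed pseudogene on chromosome 12, which was listed at 51.7 TPM and 578 TPM. With its copies Pgk1 came to 792 TPM and 1039 TPM, so the order of the libraries turned, and its log2 ratio of scaled counts went from -0.42 to 0.64. In replicate 2 a further 42.4% of Pgk1 TPM was assigned to Pgk1-203, a decay target of 1764 nt that was listed at 0 in replicate 1.

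Eno1 shares 27.1% of its 36-mers with Eno1b, which was listed at 1172 TPM and 792 TPM. With copies Eno1 came to 3162 TPM and 3161 TPM, nearly equal, where Eno1 alone was higher in replicate 2. Its log2 ratio of scaled counts went from 0.60 to 0.35 with copies, still over the all-gene median of 0.28. Pgam1 shares 36.9% with Pgam1-ps2, a pseudogene on chromosome 7 at 231 TPM and 168 TPM. Gapdh has 39 such partners in the tables, and together they held 75.5 TPM and 133 TPM, little beside Gapdh itself. How many reads of these copies belong to the genes was not tested.

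**Figure D5:**
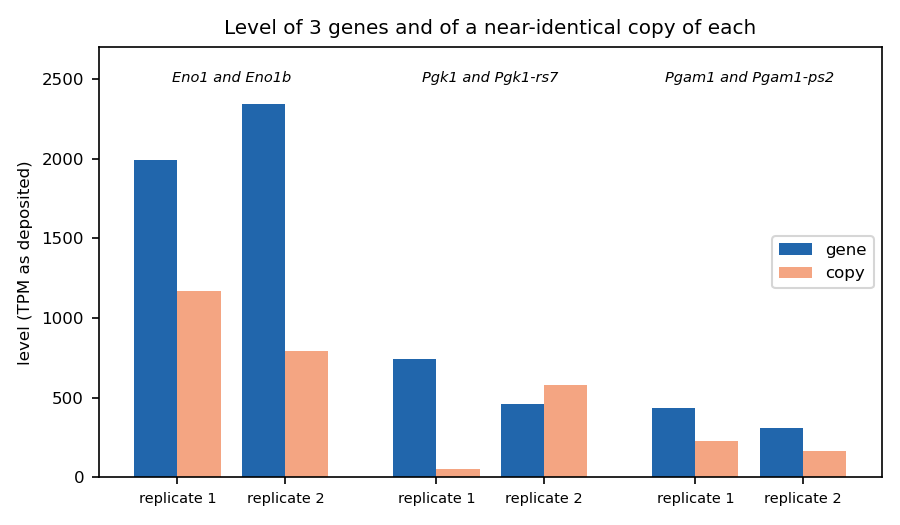
Level (TPM as deposited) of Eno1, Pgk1 and Pgam1 (blue bars) and of a near-identical copy of each (orange bars) in both replicates. In replicate 1 Pgk1-rs7 is at 51.7 TPM, and in replicate 2 it is above Pgk1 at 578 TPM.

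Most genes had the same leading transcript in each library, 27 of the 32 by TPM and 30 by count. Hk3 and Ldhb had too few counts to name one, and Pfkp, Aldoc and Tkt differed by TPM but not by count. For 3 members with 1 transcript the agreement was fixed beforehand, and the share over all genes was not computed. Aldoc-206, a processed transcript of 706 nt, took 66.1% of Aldoc TPM in replicate 1 and 35.7% in replicate 2. For Hk1 the leading Hk1-201 took 57.6% and 60.0%, and Hk1-202 30.7% and 26.1%. Pfkm was divided between Pfkm-201, at 56.0% and 69.9%, and Pfkm-202, at 44.0% and 30.1%.

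Genes around the pathway were described from lists of related genes. Counts of genes at 1 TPM in both libraries are read beside the 42.5% of all protein-coding genes that reached it. Besides Bsg, 2 of the other 12 transport genes reached 1 TPM in both libraries, Slc2a8 at 13.6 TPM and 12.4 TPM and Slc2a9 at 1.25 TPM and 2.03 TPM. The insulin-responsive Slc2a4 had 4 counts and 1 count. Of 16 other isozymes, 3 reached 1 TPM, and these were Pgam5, Adpgk and H6pd. Pgam5, a mitochondrial phosphatase named for its likeness to mutases, stood at 75.3 TPM and 38.0 TPM, and the ADP-dependent glucokinase Adpgk at 22.9 TPM and 23.8 TPM. The neuronal enolase Eno2 stood at 0.50 TPM and 0.17 TPM.

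Of 15 regulators of flux, 11 reached 1 TPM in both. Txnip, an inhibitor of glucose uptake, stood at 208 TPM and 49.0 TPM, and Pdk1, a kinase that restrains pyruvate dehydrogenase, at 70.5 TPM and 104 TPM. Pfkfb3, which makes an activator of phosphofructokinase, was at 0.04 TPM and 0.03 TPM from 3 and 6 counts. Of 20 side-branch genes, 18 reached 1 TPM, led by Pgp at 58.2 TPM and 112 TPM, Minpp1 at 102 TPM and 63.2 TPM and Pgm1 at 72.5 TPM and 92.4 TPM. Minpp1 can remove a phosphate from bisphosphoglycerate.

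Of 9 gluconeogenesis genes, 4 reached 1 TPM in both libraries, where 42.5% of protein-coding genes did, and 5 stayed under it in both. G6pc3 stood at 34.8 TPM and 27.6 TPM, Pck2 at 29.2 TPM and 12.4 TPM and Slc37a4 at 19.5 TPM and 16.2 TPM. Fbp1, which reverses phosphofructokinase, was listed at 0 counts in both libraries. Of 8 transcription factors known for glycolytic targets, 6 reached 1 TPM. Myc stood at 531 TPM and 281 TPM, Arnt at 92.3 TPM and 49.0 TPM and Sp1 at 64.1 TPM and 28.6 TPM. Hif1a, the partner of Arnt in the response to low oxygen, stood at 16.7 TPM and 19.8 TPM, and Epas1 at 0.27 TPM and 0 TPM.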

How the data were processed

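Poly(A) RNA of 2 G1E libraries was analysed as 1 group. Per the deposited notes, the authors' tables use assembly mm10 and annotation release M4. Strand use, aligner and quantifier were not given in the sources used here. Expected counts, estimated reads per gene or transcript, were deposited by the authors with no normalisation. The deposited TPM values divide counts by effective length and are scaled to a fixed total per library, and a posterior mean TPM stands beside them. The deposited percent column gives each transcript's share of its gene's TPM.

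Names, positions and exons came from GENCODE M21 (GRCm38), and promoter windows from RefSeq. Counts were rounded and scaled with TMM in edgeR 4.0.16 (R 4.3.3), with DESeq2 1.42.0 size factors as an alternative. Ratios add 0.5 to each count and need at least 50 counts in total. Pair differences use log2(TPM + 1), which understates differences of low genes. Copies are genes sharing 36-mers of the transcripts. TPM over the longest protein-coding transcript was recomputed from gene counts and added after the data were seen. No bound was computed on that scale, and its pair differences are read against the bound from deposited TPM. The comparison of pairs was planned, but the 17 pairs were listed after member values were seen. On counts simulated for replicate 2 over replicate 1 with 12845 genes, 97.5% of genes changed 4-fold were recovered and 4.56% of unchanged genes were called. The simulated spread was fixed beforehand and not estimated from the libraries, so 4.56% holds for that spread only. Between the real libraries, 22.3% of genes with at least 50 counts were at least 2-fold higher and 10.2% at least 2-fold lower. The remaining work was done in Python 3.11.15 with matplotlib 3.10.9, numpy 2.4.6 and pandas 2.3.3.

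Members and lists were chosen with earlier results of these data known. Named are all members, from each related list up to 3 genes of highest mean TPM and up to 3 under 1 TPM, their leading copies, and their leading transcripts; of the genes under 1 TPM the text gives a selection, and it adds Hif1a, chosen after its values were seen. Mondoa found no match and was not analysed here.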

Additional observations from a re-analysis of the deposited data

How the results depend on the processing

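The median level of 135 TPM became 130 TPM with the posterior mean TPM and 93.2 TPM over the longest protein-coding transcripts, and ranged from 129 TPM to 131 TPM when either library was left out. At 1.5-fold in place of 2-fold, 11 genes in place of 4 were apart between the libraries. At 50% shared 36-mers in place of 10%, 1 gene in place of 12 shared them with another gene. Pfkl over Pfkp turned from -0.17 to 0.17 without replicate 1 (-0.52 without replicate 2) and to 0.81 over the longest protein-coding transcripts. Rpia over Rpe turned from 0.02 to -0.43 without replicate 2 (0.48 without replicate 1) and to -0.08 over those transcripts. The cause was not tested. The count of 30 expressed genes went to 29 at 5 TPM and was 30 under the other settings tried, and pairs beyond the bound numbered 13 to 14 under all settings. With 1 library left out, the remaining one is assumed to vary like the pooled genes. Agreement of leading transcripts needs both libraries and was not run without one. No paired analysis was possible because there was 1 group. Depth limits Hk3 and Ldhb to wide counting intervals.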
